A study of Mus musculus with 9 samples.

Results

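Neurotransmitter receptor genes were taken as the symbols that name receptors, or subunits of receptors, for glutamate (Gria, Grin, Grik, Grid and Grm genes), GABA (Gabr and Gabbr genes), glycine (Glra and Glrb genes), acetylcholine (Chrn and Chrm genes) and serotonin (Htr genes). Of the 38197 symbols in the tables, 87 met this rule, of which 26 belonged to glutamate, 21 to GABA, 5 to glycine, 21 to acetylcholine and 14 to serotonin. The cells were wild-type mouse ESCs of a single line, grown as a monolayer and exposed to retinoic acid and the Shh pathway agonist SAG from 0 to 3 DDC (days in differentiation conditions) by the sample labels. In the paper's methods both were withdrawn somewhat later than 3 DDC. NSCs were then sorted magnetically on prominin-1, which neural progenitors carry on their surface, at 4.5DDC, 5.5DDC and 6.5DDC, with 3 libraries of poly(A)-selected RNA per time point. Total counts per library ranged from 11066572 to 25506192. The sample labels do not say whether the libraries of a time point came from separate cultures, so p-values measure the spread between these libraries, which may be technical.

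Ionotropic receptors for these transmitters are assembled from several subunits, and the combination sets which ligand opens the channel and which ions pass. AMPA receptors are built from Gria subunits, kainate receptors from Grik, NMDA receptors from Grin1 with Grin2 or Grin3 subunits, GABA-A receptors from Gabr subunits, glycine receptors from Glra with Glrb, and nicotinic receptors from Chrn subunits. Metabotropic receptors (Grm, Gabbr, Chrm and most Htr genes) act through G proteins instead.

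Most of the 87 genes were silent or nearly so in these cells. 7 of them had 0 counts in all 9 libraries (Chrm1, Chrna1, Chrnd, Chrne, Gabra6, Glra3 and Grm6), and 21, these included, never reached the floor of detection, set at 3 counts in a library. The floor corresponded to between 0.118 and 0.271 CPM and covers counting error only. 35 genes had enough counts to be tested and 52 did not. The untested genes included, for glutamate, Grik1, Grin2b, Grin2c, Grin3a, Grin3b, Grm3, Grm6 and Grm7, and, for GABA, Gabra4, Gabra5, Gabra6, Gabrb1, Gabrd, Gabre, Gabrg3, Gabrp, Gabrr1, Gabrr2 and Gabrr3. For glycine they were Glra2, Glra3 and Glra4, for acetylcholine Chrm1, Chrm2, Chrm3, Chrm5, Chrna1, Chrna10, Chrna2, Chrna6, Chrna9, Chrnb3, Chrnd, Chrne and Chrng, and for serotonin all 14. The tested genes comprised 16 for glutamate, 9 for GABA, 2 for glycine, 8 for acetylcholine and 0 for serotonin. A gene that was low at first could enter the test through the time point at which it was high, and a gene of that kind had to differ, so no count or median over the tested genes is offered as evidence of a general rise.

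A smaller set was expressed at a level of at least 1 FPKM (fragments scaled to transcript length and library size) in all 3 libraries of a time point. This set held 11 receptor genes at 4.5DDC, 12 at 5.5DDC and 15 at 6.5DDC, beside 13612, 13863 and 13735 symbols of any kind. At 4.5DDC it consisted of 7 nicotinic subunit genes (Chrna3, Chrna4, Chrna5, Chrna7, Chrnb1, Chrnb2 and Chrnb4), the kainate subunit genes Grik3 and Grik5, Gabbr1 and Glrb. At 6.5DDC genes such as Gria2, Gria3, Gria4, Grik2 and Grin2a were added, whereas Grik3 and Chrnb4 dropped out because replicate 1 was under 1 FPKM. 8 genes passed at every time point and 17 at any.

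**Figure D1:**
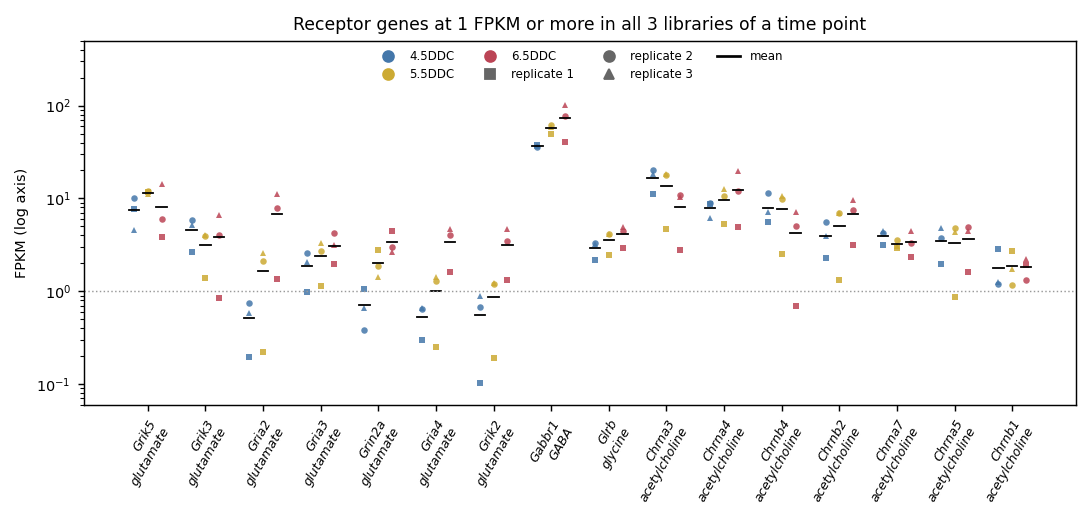
FPKM (log axis) in each library of 16 of the 17 receptor genes that were at 1 FPKM or more in all 3 libraries of a time point, grouped by transmitter; points are libraries, black bars are means and the dotted line is 1 FPKM. Gabbr1 was the most abundant, between 35.8 and 103 FPKM, and replicate 1 (squares) lay under both other libraries for most genes.

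Replicate 1 stood apart from replicates 2 and 3 at each time point, and this bears on every result that follows. Its CPM (counts scaled to the library total) was the lowest of the 3 libraries for 25 of the 35 tested receptor genes at 4.5DDC, 31 at 5.5DDC and 31 at 6.5DDC, whereas over all 14742 tested genes it was the lowest for 36.5%, 43.3% and 34.6%. Summed over the 87 receptor genes, FPKM came to 95.2, 133 and 114 at 4.5DDC, 97.4, 168 and 168 at 5.5DDC and 87, 189 and 250 at 6.5DDC. The summed FPKM of 15 neuron marker genes was 297, 822 and 543 at 4.5DDC, 248, 954 and 959 at 5.5DDC and 506, 1095 and 1169 at 6.5DDC. Replicate 1 was thus the lowest library of its time point on both sums. Chrnb1 and Grin2a were exceptions, with their highest CPM in replicate 1 at all 3 time points. The part of the neuron markers in the position of replicate 1 was not tested. In bulk RNA, fewer cells of a type and less RNA per cell cannot be told apart.

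Between 4.5DDC and 6.5DDC, 8 receptor genes rose and 1 fell at an adjusted p under 0.05 in edgeR's quasi-likelihood test, among the 35 tested. The 8 that rose were Gria2, Gria4, Grik2, Grin2a, Grid1, Gabra2, Gabrq and Gabbr1, and the 1 that fell was the muscarinic receptor gene Chrm4. Over all 14742 tested genes, 9.21% were called higher and 9.53% lower in this comparison, against 22.9% and 2.86% of the tested receptor genes. The log2 fold change was above 0 for 27 of the 35, with a median of 0.91 beside 0.00398 for all tested genes. Calls were thus spread over glutamate (5 higher), GABA (3 higher) and acetylcholine (1 lower), with 0 among the 2 glycine receptor genes by edgeR without a block, DESeq2 or limma voom (0 at an unadjusted p under 0.05).

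The number of calls depended on single libraries. Without 4.5DDC replicate 1, 2 or 3, the genes called higher numbered 4, 3 and 3, beside 7.22%, 3.36% and 5.81% of all genes tested in those fits. Without 6.5DDC replicate 2 or 3 they numbered 2 in either case (3.86% and 6.66%). Without 5.5DDC replicate 1 or 6.5DDC replicate 1 the number was 17 of 40 and 14 of 41 (10.7% and 10.4%). With the replicate number as a block, 19 of 35 were called higher and 3 lower, beside 13% and 10.2% of all genes. The 19 took in Gria1, Gria3, Grik4, Grm5, Grm8, Gabbr2, Gabra3, Gabrb2 and Glra1, among others. A block of replicate 1 against the others, chosen after seeing the data, gave 19 and 4 (16% and 13.7%). Gabrq and Grin2a were called in all 21 alternative analyses. With replicates 2 and 3 only, an alternative chosen after seeing the data, 22 of 40 tested receptor genes were called higher and 2 lower, beside 16.5% and 14.8% of the 14638 genes tested in that way. These 22 took in all 8 named above and, among others, Gria1, Grik4, Grin3a, Grm5, Grm7, Grm8, Gabra3, Gabrb2, Gabbr2, Chrna4 and Chrnb2. The pair called lower was Chrm4 and Chrna3. Deviations from the time point mean correlated between 4.5DDC and 6.5DDC at 0.383 for replicate 1, −0.0396 for replicate 2 and −0.215 for replicate 3. Replicate 1 thus stood apart in the same way at both time points, but the numbers do not pair replicates 2 and 3. Differences within a number over this span, here and below, are therefore descriptions. The main fit has no block, so the shared deviation of replicate 1 counts as spread in it. Within the replicate numbers, the log2 CPM difference from 4.5DDC to 6.5DDC was above 0 for 21 of the 35 genes in replicate 1, 25 in replicate 2 and 30 in replicate 3, with medians of 0.61, 0.91 and 1.53.

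**Figure D2:**
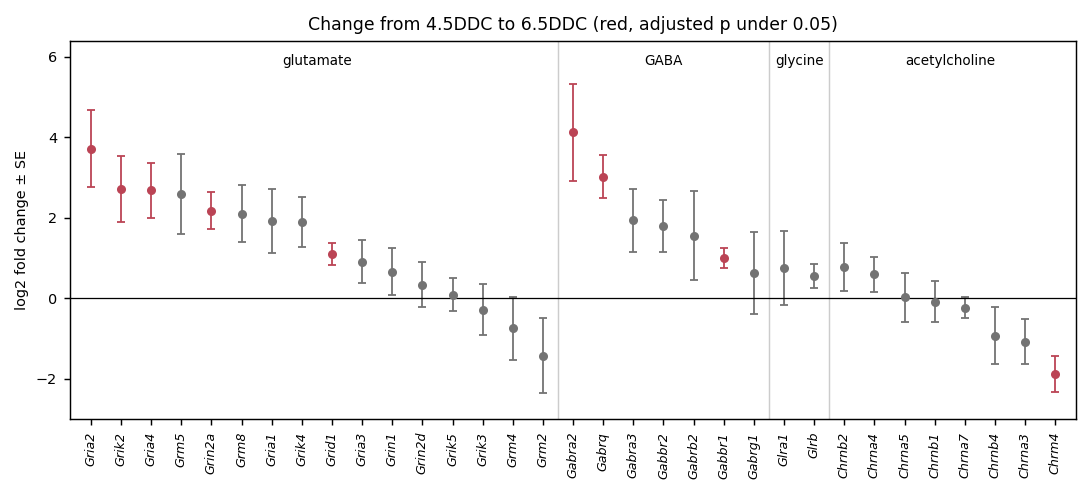
Log2 fold change from 4.5DDC to 6.5DDC, with its SE from the edgeR fit to 9 libraries, of 33 of the 35 tested receptor genes, ordered within each transmitter; red marks an adjusted p under 0.05. The called values run from −1.88 for Chrm4 to 4.12 for Gabra2, while that of Grm5 was 2.6 without a call.

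The comparisons share libraries, since 5.5DDC enters both 1-day intervals and 4.5DDC and 6.5DDC enter the whole span too. From 4.5DDC to 5.5DDC, 0 receptor genes were called by edgeR, DESeq2 or limma voom, beside 0.0611% of all tested genes called higher and 0.0136% lower by edgeR. At an unadjusted p under 0.05 there were 3 receptor genes of 35 and 2275 genes of 14742. From 5.5DDC to 6.5DDC, 0 were called by edgeR and limma voom and 1, Gabrq, by DESeq2 (1.86% of all genes higher), beside 0.0271% of all tested genes called higher and 0.197% lower by edgeR. The unadjusted p was under 0.05 for 7 receptor genes and 2733 genes in all. Libraries of adjacent time points were paired by their replicate numbers, and with the number as a block 0 receptor genes were called higher from 4.5DDC to 5.5DDC (1.27% of all tested genes) and 5 from 5.5DDC to 6.5DDC (0.787%). Gria2, Gria4 and Grik2 were among these 5, with log2 fold changes of 2.16, 1.86 and 2.05. With replicates 2 and 3 only, 3 were called in the first interval (Gabbr1, Gria2 and Gria4, all higher), beside 2.42% of all genes called higher, and in the second 8 were called higher and 1 lower, beside 2.46% and 2.51%. Without 6.5DDC replicate 1, 1 receptor gene was called higher from 5.5DDC to 6.5DDC (0.436% of all genes). A contrast of the later with the earlier interval was tested as well, and the lowest adjusted p of a receptor gene was 0.76, with 0 receptor genes at an unadjusted p under 0.05 by edgeR and 0 called by any alternative run. A difference between the intervals was thus not detected for any receptor gene.

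The promoters of Gria2, Gabrq, Gabbr1 and Chrm4 are shown because these genes cover the glutamate, GABA and acetylcholine receptors that changed from 4.5DDC to 6.5DDC. Each window runs from 250 bases before to 50 after the start of the gene given there, taken from RefSeq on GRCm38.p6, which matched 63 of the 87 genes and had no entry for Grid1 and Grin2a. Gria2 lies on the minus strand at chr3:80802786-80803085, and Gabrq, Gabbr1 and Chrm4 lie on the plus strand at chrX:72824928-72825227, chr17:37045716-37046015 and chr2:91921939-91922238. For Chrm4 the annotations differ, and this window lies upstream of the whole gene as placed by GENCODE M21 (chr2:91927249-91928688). Capitals mark 2 motifs, searched on both strands and chosen after their matches were seen: the core of RE1, the element bound by the repressor REST (AGCACC, then any 2 bases, then GGACAG), and the GC box (GGGCGG), for which overlapping matches were counted.
Gria2: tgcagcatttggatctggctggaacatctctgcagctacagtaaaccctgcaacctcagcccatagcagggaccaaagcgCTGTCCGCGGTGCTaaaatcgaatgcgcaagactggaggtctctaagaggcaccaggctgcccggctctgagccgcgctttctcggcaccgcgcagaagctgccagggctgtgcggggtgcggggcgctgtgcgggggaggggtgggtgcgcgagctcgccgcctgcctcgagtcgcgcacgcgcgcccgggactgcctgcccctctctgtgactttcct
Gabrq: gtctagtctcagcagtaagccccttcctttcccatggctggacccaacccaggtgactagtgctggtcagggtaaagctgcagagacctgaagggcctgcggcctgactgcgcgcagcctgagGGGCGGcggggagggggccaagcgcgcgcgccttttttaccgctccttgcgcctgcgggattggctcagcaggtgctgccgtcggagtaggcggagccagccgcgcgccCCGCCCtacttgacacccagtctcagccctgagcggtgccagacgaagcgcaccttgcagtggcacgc
Gabbr1: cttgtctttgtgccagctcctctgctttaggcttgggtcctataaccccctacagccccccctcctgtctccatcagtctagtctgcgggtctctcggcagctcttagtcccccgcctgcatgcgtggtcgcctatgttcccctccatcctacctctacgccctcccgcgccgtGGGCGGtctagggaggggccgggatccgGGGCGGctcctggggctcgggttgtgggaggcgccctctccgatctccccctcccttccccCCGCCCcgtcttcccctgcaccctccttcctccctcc
Chrm4: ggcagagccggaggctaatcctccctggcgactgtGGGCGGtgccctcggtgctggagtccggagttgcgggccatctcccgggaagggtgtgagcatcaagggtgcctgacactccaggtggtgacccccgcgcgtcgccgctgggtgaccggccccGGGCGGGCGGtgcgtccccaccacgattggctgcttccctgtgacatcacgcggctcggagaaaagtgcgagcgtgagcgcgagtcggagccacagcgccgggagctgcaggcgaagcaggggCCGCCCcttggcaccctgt
The RE1 core was found in the Gria2 window alone of the 73 windows of receptor genes, at bases 81 to 94 of the sequence shown, and in 17 (0.0517%) of 32851 windows of all genes. The GC box was found 2 times in Gabrq, 3 times in Gabbr1, 4 times in Chrm4 and 0 times in Gria2. It was held by 36 (49.3%) of the windows of receptor genes and by 35.7% of all windows. The E-box CAGCTG was in 9 windows of receptor genes (12.3%) and 16.3% of all windows, and in 0 of the 4 shown. A match describes the letters of the window and does not show that a factor binds there.

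Of the AMPA receptor genes, Gria2 and Gria4 rose from low levels. Gria2 stood at 0.196, 0.748 and 0.589 FPKM at 4.5DDC, 0.222, 2.13 and 2.58 FPKM at 5.5DDC and 1.34, 7.92 and 11.3 FPKM at 6.5DDC. Gria4 measured 0.296, 0.64 and 0.663 FPKM at 4.5DDC, 0.252, 1.3 and 1.44 FPKM at 5.5DDC and 1.59, 4.02 and 4.64 FPKM at 6.5DDC. Every 6.5DDC library of either gene lay above every 4.5DDC library, and replicate 1 was the lowest of its time point throughout. Between these time points the log2 fold change was 3.72 ± 0.96 (SE) for Gria2, the subunit that makes AMPA receptors impermeable to calcium once its RNA is edited, and 2.69 ± 0.69 for Gria4, with adjusted p of 0.0257 and 0.0252 in edgeR. Within replicates 1, 2 and 3 the log2 CPM difference was 2.7, 3.42 and 4.09 for Gria2 and 2.44, 2.55 and 2.76 for Gria4. Leaving out 4.5DDC replicate 1, 2 or 3 or 6.5DDC replicate 2 or 3 ended both calls, with adjusted p between 0.0613 and 0.0759 for Gria2 and between 0.0574 and 0.0781 for Gria4, and limma voom and log2 FPKM with a pseudocount of 0.1 did not call Gria2. Over all alternatives the adjusted p ran from 7.6e-05 to 0.0792 for Gria2 and from 0.00023 to 0.0781 for Gria4.

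Gria3, the AMPA subunit gene with the highest level at 4.5DDC, was not called by edgeR without a block. It stood at 0.98, 2.6 and 2.07 FPKM at 4.5DDC, 1.15, 2.7 and 3.27 FPKM at 5.5DDC and 1.99, 4.19 and 3.14 FPKM at 6.5DDC, and its log2 fold change was 0.91 ± 0.53 with an adjusted p of 0.242, the groups overlapping. The replicate block called it higher, with the limit that the numbers do not pair replicates 2 and 3 over this span. Gria1 was lower still, at 0.0407, 0.117 and 0.157 FPKM at 4.5DDC, 0.0229, 0.291 and 0.231 FPKM at 5.5DDC and 0.173, 3.55 and 0.716 FPKM at 6.5DDC. The 6.5DDC value of replicate 2 for Gria1 rested on 46 counts, fewer than the 52 of replicate 3, so its FPKM is uncertain. On counts, Gria1 had a log2 fold change of 1.92 ± 0.8 with an adjusted p of 0.118. As shares of the summed mean FPKM of the 4 AMPA genes at 4.5DDC, 5.5DDC and 6.5DDC, Gria3 accounted for 62.1%, 45.7% and 20.9%, Gria2 for 16.9%, 31.6% and 46.1% and Gria4 for 17.6%, 19.2% and 23%. By these means the leading AMPA gene was Gria3 at 4.5DDC and 5.5DDC and Gria2 at 6.5DDC, although in replicate 1 of 6.5DDC Gria3 was above Gria4 and Gria2.

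Among kainate receptor genes, those expressed early did not pass the test and Grik2 did. Grik5 stood at 7.69, 10.1 and 4.54 FPKM at 4.5DDC, 11.6, 11.9 and 11.1 FPKM at 5.5DDC and 3.87, 5.96 and 14.3 FPKM at 6.5DDC. Grik3 ran at 2.64, 5.86 and 5.15 FPKM at 4.5DDC, 1.39, 3.96 and 4.05 FPKM at 5.5DDC and 0.836, 4.08 and 6.59 FPKM at 6.5DDC. The 4.5DDC and 6.5DDC libraries overlapped for either gene, with log2 fold changes of 0.09 ± 0.4 and −0.28 ± 0.63 and adjusted p of 0.895 and 0.784. Grik2 was at 0.102, 0.679 and 0.895 FPKM at 4.5DDC, 0.192, 1.19 and 1.22 FPKM at 5.5DDC and 1.33, 3.44 and 4.64 FPKM at 6.5DDC. All 3 libraries of 6.5DDC were above all 3 of 4.5DDC, and the log2 fold change was 2.72 ± 0.83 with an adjusted p of 0.0467. The difference was 3.59, 2.51 and 2.51 within replicates 1, 2 and 3. This call ended when any library other than 5.5DDC replicate 1 or 6.5DDC replicate 1 was left out (adjusted p between 0.0626 and 0.125), with limma voom and on log2 FPKM with a pseudocount of 0.1, and over all alternatives the adjusted p ran from 0.000199 to 0.125. Grik2 accounted for 4.29%, 5.25% and 18.9% of the summed kainate FPKM at the 3 time points, and Grik5 for 57%, 69.9% and 48.5%. Grik4 had a log2 fold change of 1.89 ± 0.62 with an adjusted p of 0.0605. It was called higher in other settings, such as DESeq2, no filter and the replicate block. Grik1 was not tested.

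Of the NMDA receptor genes, Grin2a rose. Grin2a stood at 1.06, 0.384 and 0.667 FPKM at 4.5DDC, 2.8, 1.85 and 1.44 FPKM at 5.5DDC and 4.43, 3 and 2.66 FPKM at 6.5DDC, so that no 6.5DDC library overlapped with 4.5DDC. The log2 fold change was 2.18 ± 0.46 with an adjusted p of 0.0121, and the differences within replicates were 2.06, 2.89 and 1.7. Its adjusted p ran from 7.5e-05 to 0.04 over the alternatives. Grin1, which every NMDA receptor contains, was at 0.625 ± 0.303, 1.26 ± 0.897 and 0.713 ± 0.233 FPKM (means ± SD) at the 3 time points, with a log2 fold change of 0.66 ± 0.59 and an adjusted p of 0.452. At 6.5DDC the mean FPKM of Grin2a was thus 3.36 and that of Grin1 0.713. Grin2d had a log2 fold change of 0.34 ± 0.55 (adjusted p = 0.693), and Grin2b, Grin2c, Grin3a and Grin3b were too low to test over the 9 libraries with the filter. Grin3a was tested and called higher in other settings, such as no filter and replicates 2 and 3 only.

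Grid1, a delta receptor gene, rose by a small amount from a low level. Its libraries were at 0.47, 0.463 and 0.398 FPKM at 4.5DDC, 0.739, 0.676 and 0.808 FPKM at 5.5DDC and 0.836, 0.766 and 1.16 FPKM at 6.5DDC, without overlap between 4.5DDC and 6.5DDC. The log2 fold change was 1.1 ± 0.27 with an adjusted p of 0.023, which was between 0.0524 and 0.0662 without 4.5DDC replicate 2 or 3 or 6.5DDC replicate 2 or 3 and ran from 0.00337 to 0.0662 over all alternatives, also without a call for the 6 libraries compared. Of the 8 metabotropic glutamate receptor genes 4 were tested, and 0 of these were called by edgeR over the 9 libraries without a block. Without a filter Grm7 was tested too and was called higher. Grm2 stood at 0.471, 3.46 and 1.16 FPKM at 4.5DDC, 0.312, 1.82 and 1.74 FPKM at 5.5DDC and 0.0955, 0.364 and 1.38 FPKM at 6.5DDC. Grm5 ran at 0.044, 0.13 and 0.108 FPKM at 4.5DDC, 0.0804, 0.419 and 0.325 FPKM at 5.5DDC and 0.353, 1.07 and 0.631 FPKM at 6.5DDC. Grm2 had a log2 fold change of −1.42 ± 0.93 and an adjusted p of 0.301, with overlapping groups, and Grm5 had 2.6 ± 1 and 0.0961, with 6.5DDC above 4.5DDC in every library. DESeq2 called Grm5, and Grm5 and Grm8 were called with the replicate block. Grm8 was at 0.0965 ± 0.0287 FPKM at 4.5DDC and 0.383 ± 0.336 at 6.5DDC, with between 2 and 19 counts per library, a log2 fold change of 2.1 ± 0.71 and an adjusted p of 0.0653. Grm4 had a log2 fold change of −0.74 ± 0.78 (adjusted p = 0.533).

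Gabbr1, a subunit of the metabotropic GABA-B receptor, was the most abundant receptor gene in every library and was called higher. It stood at 37.8, 35.8 and 36.3 FPKM at 4.5DDC, 49.5, 62.3 and 58.9 FPKM at 5.5DDC and 40.3, 76.4 and 103 FPKM at 6.5DDC. At 4.5DDC the spread was narrow, between 35.8 and 37.8 FPKM, and all 6 later libraries were above them, though replicate 1 at 6.5DDC exceeded the highest of them only by a small margin. The log2 fold change was 1 ± 0.25 and the adjusted p 0.0235, and within replicates 1, 2 and 3 the difference was 0.16, 1.12 and 1.49. The call ended without 4.5DDC replicate 2 or 3 or 6.5DDC replicate 2 or 3 (adjusted p between 0.0629 and 0.0802), with limma voom and on log2 FPKM, and the range over all alternatives was 0.000965 to 0.0802. Gabbr2, with which Gabbr1 forms the receptor, was at 0.131 ± 0.0927, 0.258 ± 0.0426 and 0.442 ± 0.111 FPKM and made up 0.357%, 0.452% and 0.6% of the summed FPKM of the pair. The FPKM and counts of Gabbr2 differed in course between libraries, so these levels and shares are uncertain. In CPM, Gabbr2 averaged 0.674, 1.34 and 2.32 at the 3 time points, beside 83.6, 130 and 168 for Gabbr1. The log2 fold change of Gabbr2 was 1.8 ± 0.65 with an adjusted p of 0.0816.

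GABA-A receptor genes were lower than Gabbr1. Gabrg1 ran at 0.0551, 0.426 and 0.692 FPKM at 4.5DDC, 0.071, 0.329 and 0.285 FPKM at 5.5DDC and 0.0261, 1 and 0.849 FPKM at 6.5DDC. Replicate 1 at 6.5DDC was under all 4.5DDC libraries of Gabrg1, and the other 6.5DDC libraries lay above them. From 4.5DDC to 6.5DDC the log2 fold change of Gabrg1 was 0.63 ± 1.01 with an adjusted p of 0.691, and over this span it was not called with replicates 2 and 3 only.

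Gabra2 and Gabrq, a pair of GABA-A subunit genes under 1 FPKM, were called higher. Gabra2 stood at 0, 0 and 0.0947 FPKM at 4.5DDC, 0.027, 0.209 and 0.188 FPKM at 5.5DDC and 0.109, 0.766 and 0.842 FPKM at 6.5DDC. Gabrq was at 0.0701, 0.16 and 0.131 FPKM at 4.5DDC, 0.112, 0.215 and 0.379 FPKM at 5.5DDC and 0.985, 0.778 and 0.733 FPKM at 6.5DDC. At 4.5DDC Gabra2 had 0, 0 and 4 counts, so its log2 fold change of 4.12 ± 1.2 (adjusted p = 0.0406) depends on how such counts are treated, and the adjusted p was between 0.0577 and 0.131 without 4.5DDC replicate 1 or 2 or 5.5DDC replicate 2 or 3 and ran from 0.00176 to 0.131 over the 16 alternatives with a value. DESeq2, a stricter filter, the 6 libraries compared and the runs without 6.5DDC replicate 2 or 3 gave no adjusted p for Gabra2, and log2 FPKM with a pseudocount of 1 did not call it. Gabrq had a log2 fold change of 3.02 ± 0.53 with an adjusted p of 0.00612, the lowest of all receptor genes, a range of 1.2e-05 to 0.0248 over the alternatives, and differences of 3.74, 2.39 and 2.31 within replicates. By FPKM its highest 6.5DDC library was replicate 1, unlike for most of the genes above. In CPM the 6.5DDC libraries of Gabrq were nearly equal, at 3.85, 3.79 and 3.77 in replicates 1, 2 and 3. Gabra3, a neighbour of Gabrq on chromosome X, was at 0.137 ± 0.114 FPKM at 4.5DDC and 0.463 ± 0.164 at 6.5DDC, with a log2 fold change of 1.94 ± 0.78 and an adjusted p of 0.107. No alpha subunit gene of the GABA-A receptor reached 1 FPKM in any library. The other 12 GABA-A genes were too low to test.

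**Figure D3:**
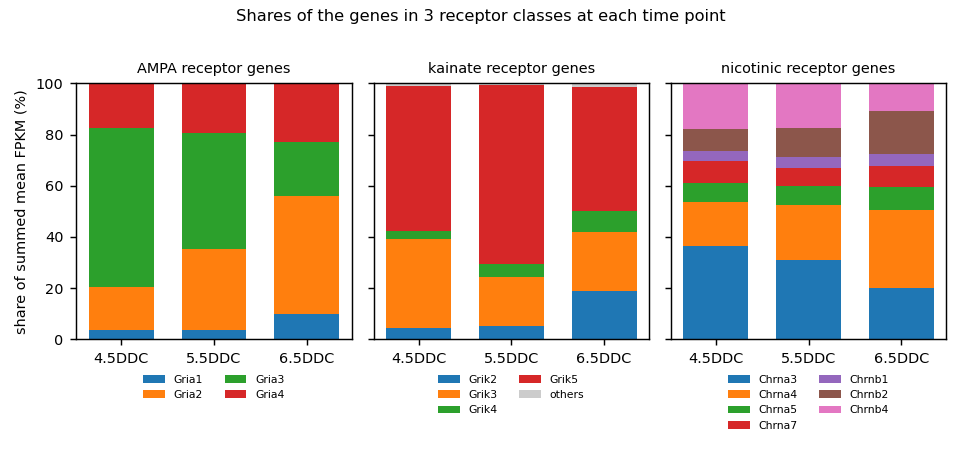
Share (%) of the summed mean FPKM of a receptor class taken by each of its genes at 4.5DDC, 5.5DDC and 6.5DDC, for AMPA, kainate and nicotinic receptor genes; bars stack to 100%, and genes under 3% at every time point are pooled as others where they reach 0.5% together. At 4.5DDC and 6.5DDC Gria2 held 16.9% and 46.1% of the AMPA sum, and Chrna3 36.3% and 20% of the nicotinic sum.

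Glycine receptor expression came down to an alpha and a beta subunit gene. Glra1 stood at 0.474, 3.1 and 4.02 FPKM at 4.5DDC, 0.924, 6.18 and 5.79 FPKM at 5.5DDC and 0.649, 5.81 and 7.62 FPKM at 6.5DDC. Glrb ran at 2.19, 3.35 and 3.26 FPKM at 4.5DDC, 2.44, 4.16 and 4.16 FPKM at 5.5DDC and 2.9, 4.46 and 4.96 FPKM at 6.5DDC. Replicate 1 was the lowest library of each time point for both, and the time points overlapped. From 4.5DDC to 6.5DDC the log2 fold change was 0.75 ± 0.93 for Glra1 and 0.55 ± 0.3 for Glrb, with adjusted p of 0.597 and 0.219. With the replicate number as a block Glra1 was called higher, although the numbers do not pair replicates 2 and 3 over this span. Of the others, Glra2 reached 0.154 FPKM at most, Glra4 reached 0.0704 and Glra3 had 0 counts.

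Nicotinic receptor genes were expressed from 4.5DDC on, and 0 of the 7 tested were called from 4.5DDC to 6.5DDC by edgeR over the 9 libraries without a block, DESeq2 or limma voom, with 0 at an unadjusted p under 0.05. Chrna3 stood at 11.1, 20.3 and 18.5 FPKM at 4.5DDC, 4.69, 18.1 and 18.5 FPKM at 5.5DDC and 2.75, 11 and 10.3 FPKM at 6.5DDC. Chrnb4 was at 5.51, 11.3 and 7.06 FPKM at 4.5DDC, 2.52, 9.77 and 10.6 FPKM at 5.5DDC and 0.689, 4.99 and 7.08 FPKM at 6.5DDC. Chrna4 ran at 8.67, 8.89 and 6.11 FPKM at 4.5DDC, 5.37, 10.7 and 12.5 FPKM at 5.5DDC and 4.91, 12.1 and 19.6 FPKM at 6.5DDC. For Chrna3 and Chrnb4, which form the ganglionic type of receptor, the log2 fold change was −1.07 ± 0.57 and −0.93 ± 0.71 with adjusted p of 0.205 and 0.378. The FPKM of Chrna3 did not overlap between 4.5DDC and 6.5DDC, with its lowest 4.5DDC value, in replicate 1, just above the highest of 6.5DDC. The CPM did overlap. With the replicate block, Chrna3 and Chrnb4 were called lower. With replicates 2 and 3 only, Chrna3 was called lower at −0.91, and Chrna4 and Chrnb2 were called higher at 1.02 and 0.82. Over all libraries Chrna4 had a log2 fold change of 0.59 ± 0.43 (adjusted p = 0.351), with a difference of −0.77, 0.49 and 1.53 in replicates 1, 2 and 3.

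Chrnb2 stood at 2.28, 5.54 and 3.92 FPKM at 4.5DDC, 1.31, 6.9 and 6.92 FPKM at 5.5DDC and 3.11, 7.6 and 9.6 FPKM at 6.5DDC. From 4.5DDC to 6.5DDC it had a log2 fold change of 0.77 ± 0.59 and an adjusted p of 0.382. Adar, on the other strand, covers 16.3% of its exonic bases, and the reads of the pair cannot be told apart where strand was not used. Chrna7 was at 3.13, 4.19 and 4.46 FPKM at 4.5DDC, 2.95, 3.6 and 3.05 FPKM at 5.5DDC and 2.36, 3.29 and 4.48 FPKM at 6.5DDC. The study lists Chrna7 among genes with a biphasic course that cyclopamine represses, and a list drawn with these samples is not independent evidence for its course here. The study's criteria place the peak and the repression before 4.5DDC and measure the fall from that peak. The span compared here therefore does not test that listing. Its log2 fold change was −0.23 ± 0.27 from 4.5DDC to 6.5DDC (adjusted p = 0.569), with overlapping groups. Chrna5 and Chrnb1 had a log2 fold change of 0.02 ± 0.61 and −0.08 ± 0.52 (adjusted p = 0.982 and 0.924). As shares of the summed nicotinic FPKM at the 3 time points, Chrna3 took 36.3%, 30.9% and 20% and Chrna4 took 17.2%, 21.4% and 30.4%. Of the muscle-type subunit genes, Chrna1, Chrnd and Chrne had 0 counts and Chrng had 9 counts in a library at most. Chrnb1, the other gene of this type, was between 1.16 and 2.84 FPKM in every library.

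Chrm4, a muscarinic receptor gene, was the only receptor gene called lower by edgeR over the 9 libraries without a block. It stood at 0.458, 0.575 and 0.384 FPKM at 4.5DDC, 0.276, 0.331 and 0.56 FPKM at 5.5DDC and 0.0962, 0.124 and 0.184 FPKM at 6.5DDC, which rested on 28, 22 and 19 counts at 4.5DDC and 3, 7 and 10 at 6.5DDC. All 6.5DDC libraries were under all 4.5DDC libraries. The log2 fold change was −1.88 ± 0.46 with an adjusted p of 0.0212, the differences within replicates were −2.16, −1.88 and −1.04, and the call ended without 4.5DDC replicate 2 or 6.5DDC replicate 2 (adjusted p between 0.0762 and 0.0788) and on log2 FPKM with a pseudocount of 1. Over all alternatives the adjusted p ran from 0.00683 to 0.0788. The other 4 muscarinic genes were too low to test.

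Serotonin receptor genes were near 0 throughout. Of the 14, 0 passed edgeR's expression filter, the highest count of any in a library was 15 (Htr1b), and the highest FPKM was 0.418 (Htr1d). That Htr1d value, in 4.5DDC replicate 2, rested on 2 counts, so it and the sum of that library are uncertain. Summed over the 14 genes, FPKM was 0.423, 0.557 and 0.226 at 4.5DDC, 0.585, 0.154 and 0.377 at 5.5DDC and 0.82, 0.482 and 0.521 at 6.5DDC. Htr1b stood at 0.196, 0 and 0.145 FPKM at 4.5DDC, 0.413, 0.0611 and 0.128 FPKM at 5.5DDC and 0.389, 0.0848 and 0.0884 FPKM at 6.5DDC. Htr1a was at 0.0198, 0 and 0.0122 FPKM at 4.5DDC, 0.0139, 0 and 0.0162 FPKM at 5.5DDC and 0.0281, 0.0749 and 0.112 FPKM at 6.5DDC. Htr1a, an autoreceptor of serotonergic neurons, had 2, 7 and 10 counts at 6.5DDC and at most 2 in the earlier libraries. Htr1d and Htr2a averaged 0.0756 and 0.0294 FPKM over the 9 libraries. Over the same libraries, 6 of 9 serotonergic neuron marker genes were called higher from 4.5DDC to 6.5DDC and 1 (Ddc) lower, beside 9.21% and 9.53% of all tested genes. Among those higher were Fev, at 5.14 ± 0.77 (adjusted p = 0.00311), and the serotonin transporter gene Slc6a4, at 5.95 ± 0.72 (0.00151). The summed FPKM of the 9 markers was 40.1, 29.9 and 27.8 at 4.5DDC, 64.5, 50 and 48.4 at 5.5DDC and 77.1, 65 and 79.7 at 6.5DDC, most of it from Slc18a2 by 6.5DDC. At this depth a change in serotonin receptor RNA was not detectable.

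FPKM was also summed by class. The AMPA sum was 1.51, 4.1 and 3.48 at 4.5DDC, 1.65, 6.42 and 7.52 at 5.5DDC and 5.09, 19.7 and 19.8 at 6.5DDC FPKM. The GABA-A sum was 1.51, 5.26 and 4.48 at 4.5DDC, 1.1, 5.97 and 6.43 at 5.5DDC and 5.01, 13.7 and 16.4 at 6.5DDC. The nicotinic sum was 35.8, 55.2 and 46.1 at 4.5DDC, 20.6, 55 and 58 at 5.5DDC and 17.4, 45.2 and 57.8 at 6.5DDC. For AMPA every 6.5DDC library was above every 4.5DDC library, for GABA-A replicate 1 at 6.5DDC fell among the 4.5DDC libraries, and for nicotinic genes the time points overlapped. With Gabbr1 left out, the sum over the other 86 genes was 57.4, 97.2 and 77.3 at 4.5DDC, 47.9, 106 and 109 at 5.5DDC and 46.7, 113 and 147 at 6.5DDC. The sums are descriptions and were not tested.

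**Figure D4:**
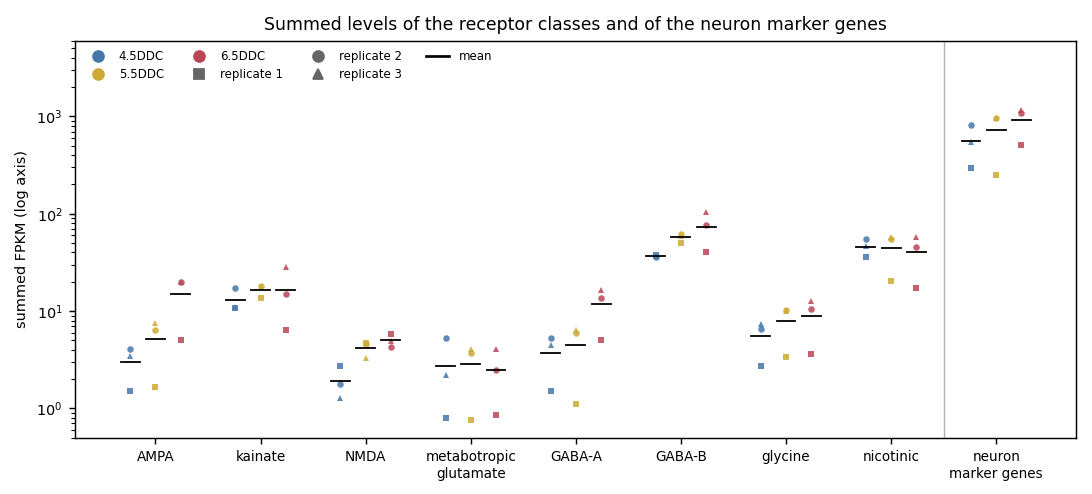
Summed FPKM (log axis) of the genes of 8 receptor classes and of 15 neuron marker genes in each library; points are libraries and black bars are means. Replicate 1 (squares) was under the other libraries of its time point for AMPA, GABA-A, glycine and nicotinic receptor genes and for the neuron markers, and the NMDA sum was highest in replicate 1 at all 3 time points.

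Neuron markers were set beside the receptor genes, since the sort was for a protein of progenitors. Tubb3 was not analysed here. Of the 15 neuron marker genes, 2 were called higher from 4.5DDC to 6.5DDC (Map2, at 1.65 ± 0.31, and Syt1, at 3.19 ± 0.36) and 0 lower (beside 9.21% and 9.53% of all tested genes), with a median log2 fold change of 0.52. With replicates 2 and 3 only, 5 were called higher and 0 lower (beside 16.5% and 14.8%). The most abundant over the 9 libraries was Gap43, at 28.1, 140 and 81.9 FPKM at 4.5DDC and 98.8, 171 and 193 at 6.5DDC, and none was at 0. Prom1, the gene of the protein used for the sort, was itself called higher, at 1.19 ± 0.18 (adjusted p = 0.00363). As a share of the summed neuron marker FPKM of the same library, Gria2 was at 0.0659, 0.091 and 0.109% at 4.5DDC and 0.265, 0.723 and 0.964% at 6.5DDC. Gria4 was at 0.0996, 0.0779 and 0.122% at 4.5DDC and 0.315, 0.367 and 0.397% at 6.5DDC, and Grik2 at 0.0343, 0.0827 and 0.165% at 4.5DDC and 0.263, 0.315 and 0.397% at 6.5DDC. For all 3, every 6.5DDC library was above every 4.5DDC library on this scale too. Gabbr1 was at 12.7, 4.36 and 6.69% at 4.5DDC and 7.96, 6.97 and 8.79% at 6.5DDC and Grin2a at 0.357, 0.0467 and 0.123% at 4.5DDC and 0.875, 0.274 and 0.228% at 6.5DDC, with overlap. In the other direction, Chrna3 was at 3.73, 2.47 and 3.4% at 4.5DDC and 0.543, 1.01 and 0.878% at 6.5DDC, Chrnb4 at 1.85, 1.38 and 1.3% at 4.5DDC and 0.136, 0.455 and 0.606% at 6.5DDC and Grik3 at 0.887, 0.713 and 0.949% at 4.5DDC and 0.165, 0.372 and 0.564% at 6.5DDC, each without overlap. On counts, none of the 3 was called by edgeR over the 9 libraries without a block, while Chrna3 was called lower with replicates 2 and 3 only. The part of the neuron markers in the changes of receptor genes was not tested.

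**Figure D5:**
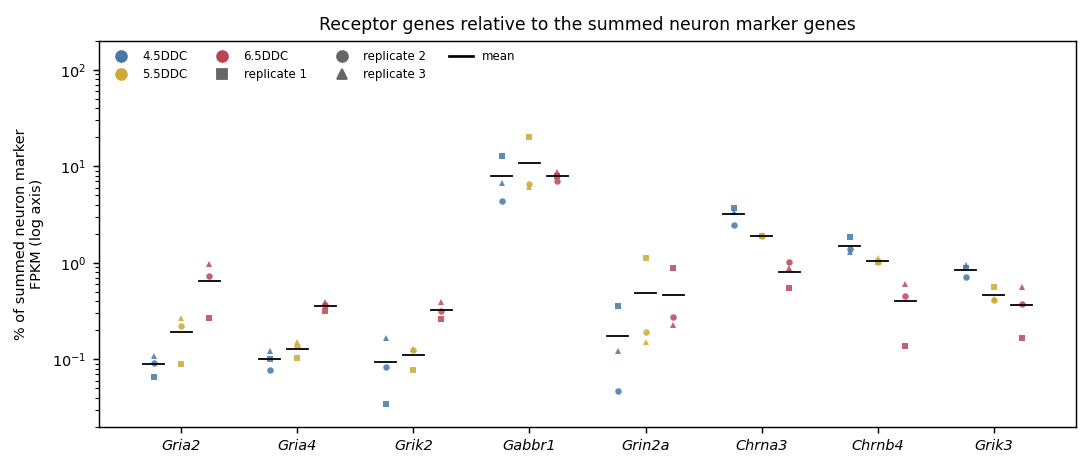
FPKM of 8 receptor genes as a percentage (log axis) of the summed FPKM of 15 neuron marker genes in the same library; points are libraries and black bars are means. On this scale Gria2 averaged 0.0885% at 4.5DDC and 0.651% at 6.5DDC, and Chrna3 3.2% and 0.809%.

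Genes whose products hold, fold or cluster the receptors were examined beside them. Of 36 auxiliary and scaffold genes of glutamate receptors, 33 were tested, 5 were called higher and 3 lower from 4.5DDC to 6.5DDC, with a median log2 fold change of 0.43 beside 0.00398 for all tested genes, of which 9.21% and 9.53% were called. Without single libraries the number higher was between 2 and 8, lowest without 4.5DDC or 6.5DDC replicate 2 and highest without 5.5DDC or 6.5DDC replicate 1. The share of all genes called higher was 3.36% and 3.86% in the former fits and 10.7% and 10.4% in the latter. The number lower was 1 without 4.5DDC or 6.5DDC replicate 2 (beside 4.25% and 3.7%). Dlg2, a scaffold of NMDA receptors, had the largest rise among the called genes, at 2.65 ± 0.73 (adjusted p = 0.0339), and the pentraxin gene Nptx2, which gathers AMPA receptors, the largest fall, at −2.99 ± 0.29 (0.000844). Nptx2 stood at 5.04, 8.17 and 4.17 FPKM at 4.5DDC, 2.78, 2.5 and 2.74 FPKM at 5.5DDC and 0.608, 0.85 and 0.725 FPKM at 6.5DDC. Nptx2, named as the largest fall of its list, thus moved against the AMPA genes Gria2 and Gria4. The other pentraxin genes listed, Nptx1 and Nptxr, were at 0.88 ± 0.41 and 0.51 ± 0.23 without a call by edgeR (adjusted p = 0.157 and 0.152). The most abundant member by mean FPKM over the 9 libraries was Dlgap4, at 71.5 ± 24.6 FPKM at 4.5DDC and 52.3 ± 21.8 at 6.5DDC, which was not called (adjusted p = 0.469). At 6.5DDC Cbln1 was above it, at 80.4 ± 6.17 FPKM. Dlg2 was low, between 0.0244 and 0.933 FPKM, and its call ended without 4.5DDC replicate 1 or 2, 5.5DDC replicate 3 or 6.5DDC replicate 2 or 3 (adjusted p between 0.0561 and 0.113) and on log2 FPKM with either pseudocount. Its FPKM overlapped between 4.5DDC and 6.5DDC, and over the 20 alternatives with a value the adjusted p ran from 0.00224 to 0.199.

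A list of 16 companion genes of GABA and glycine receptors took in clustering and trafficking genes, Kctd genes, whose products join GABA-B receptors, and 2 chloride cotransporter genes. Of these, 14 were tested, 5 were called higher and 0 lower by edgeR (beside 9.21% and 9.53% of all tested genes), with a median of 0.56. Without 4.5DDC replicate 1 or 2 or 6.5DDC replicate 2 the number higher was 3 (beside 7.22%, 3.36% and 3.86%). Gabarap, the most abundant of them, rose by 0.56 ± 0.14 (0.0207), a call that ended without 4.5DDC replicate 1 or 2 or 6.5DDC replicate 2 (adjusted p between 0.0608 and 0.0787) and with replicates 2 and 3 only. Gphn itself, chosen after its values were seen, had a log2 fold change of 0.55 ± 0.2 (0.0773). Of 15 chaperone and clustering genes of acetylcholine receptors, 11 were tested and 1 was called higher and 0 lower by edgeR, beside the same 9.21% and 9.53%. This was Tmem35, whose product assembles nicotinic receptors, and without replicate 1 of 4.5DDC, 5.5DDC or 6.5DDC the number was 2 (beside 7.22%, 10.7% and 10.4%). It stood at 95.4, 83.4 and 96.3 FPKM at 4.5DDC, 191, 161 and 155 FPKM at 5.5DDC and 359, 224 and 201 FPKM at 6.5DDC, the highest of this list, with a log2 fold change of 1.51 ± 0.23 and an adjusted p of 0.00364. Replicate 1 was the highest library for Tmem35 at 5.5DDC and 6.5DDC. Musk, Rapsn and Dok7, which act at the muscle endplate, were too low to test.

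The genes that make and move the transmitters were examined in the same way. Of 26 such genes 20 were tested, 10 were called higher and 2 lower (beside 9.21% and 9.53% of all tested genes), with a median log2 fold change of 0.99. Without 4.5DDC replicate 2 or 6.5DDC replicate 2 the number higher was 4 and 6 (beside 3.36% and 3.86%), and without replicate 2 or 3 of any time point the number lower was 1, where the share of all genes over fits without a library ran from 3.7% to 10.3%. Slc6a4 had the largest rise, as given above, and Tph1 the largest fall, at −1.97 ± 0.56 (adjusted p = 0.036), which ended without 4.5DDC, 5.5DDC or 6.5DDC replicate 2 or 3 (adjusted p between 0.0539 and 0.113). The vesicular glutamate transporter gene Slc17a8, chosen after its values were seen, stood at 1.29, 0.566 and 1.94 FPKM at 4.5DDC, 2.24, 6.96 and 6.06 FPKM at 5.5DDC and 14.7, 28.4 and 30.4 FPKM at 6.5DDC, at a log2 fold change of 4.23 ± 0.54 and an adjusted p of 0.00173. Slc17a6 and Slc17a7, its relatives, were too low to test. Gad1, Gad2 and Slc32a1, by which neurons make and load GABA, had at most 12, 6 and 1 counts in any library. Over all 4 of these lists, calls in both 1-day intervals came to 1, the fall of Nptx2 from 5.5DDC to 6.5DDC, which ended when any of 7 libraries (all but 4.5DDC replicate 2 and 6.5DDC replicate 1) was left out, with limma voom, on log2 FPKM and with the 6 libraries compared. Lhfpl3 and Slc18a3 were not analysed here.

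Markers of other cell types were read beside the receptor genes from 4.5DDC to 6.5DDC, a span over which 9.21% and 9.53% of all tested genes were called higher and lower. Of the neural progenitor markers, 13 of 13 were tested, with 1 called higher (Prom1) and 2 lower by edgeR. Those lower were Sox3, at −1.8 ± 0.49 (adjusted p = 0.033), and Mki67, at −1.22 ± 0.25 (0.0104). The summed FPKM of these markers was 2342, 2703 and 2261 at 4.5DDC, 3244, 2863 and 3125 at 5.5DDC and 3131, 2994 and 3144 at 6.5DDC. Most of it came from Vim, with means of 1568, 2044 and 1761 FPKM, so the sum says little of the other progenitor markers. Of the motor neuron markers, 9 of 9 were tested, with 0 called higher and 2 lower (Isl1 and Phox2a), and the sum was 70.2, 127 and 92.9 at 4.5DDC, 31.6, 84 and 82 at 5.5DDC and 22.3, 54.3 and 57 at 6.5DDC. Summed FPKM of nicotinic genes and of motor neuron markers was lowest in replicate 1 at every time point, though not for every gene. Of the astrocyte and oligodendrocyte precursor markers, 7 of 11 were tested, with 4 called higher and 0 lower, with a sum, led by Slc1a3, of 32.4, 31.8 and 28 at 4.5DDC, 52.6, 41 and 37.7 at 5.5DDC and 72.3, 69 and 72.6 at 6.5DDC, while Gfap, S100b and Sox10 were too low to test. Olig1 and Olig2 had log2 fold changes of −4.57 ± 1.59 and −2.89 ± 1.19 (adjusted p = 0.0714 and 0.115), and with replicates 2 and 3 only 2 genes of this list were called lower. The part of these cell types in the levels of receptor genes was not tested.

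The remaining lists were read in the same way. Of the neural crest and mesenchyme markers, 8 of 11 were tested, with 1 called higher and 0 lower (Twist1), with a sum, led by Dcn, of 12.3, 19.9 and 31.1 at 4.5DDC, 19.4, 39.8 and 39.7 at 5.5DDC and 30.5, 81.9 and 90.3 at 6.5DDC. This sum was lowest in replicate 1 at each time point, as for most receptor genes, and Sox10 and Foxd3 were near 0. Of the endoderm markers, 7 of 10 were tested, with 0 called higher and 0 lower by edgeR, with a sum, led by Krt18, of 79.7, 52.9 and 44.7 at 4.5DDC, 66.9, 42.1 and 46.3 at 5.5DDC and 64.8, 34.7 and 38.2 at 6.5DDC. Of the skeletal muscle markers, 4 of 12 were tested, with 0 called higher and 0 lower by edgeR, and Myod1 and Myf6 had 0 counts. The sum was 9.03, 7.78 and 4.85 at 4.5DDC, 8.2, 4.4 and 2.59 at 5.5DDC and 3.35, 3.24 and 3.02 at 6.5DDC. By mean FPKM, Actc1 led it at 4.5DDC and Tnnt3 at 5.5DDC and 6.5DDC. Of the pluripotent cell markers, 3 of 10 were tested, with 0 called higher and 0 lower by edgeR, Dppa3 had 0 counts, and the sum, led by Klf4, was 4.62, 2.73 and 3.12 at 4.5DDC, 4.5, 5.15 and 4.84 at 5.5DDC and 6.46, 4.53 and 3.74 at 6.5DDC. Of the blood and endothelial markers, 6 of 11 were tested, with 1 called higher and 0 lower (Kdr), and Hbb-y and Hba-x had 0 counts. The sum was 6.89, 6.29 and 7.55 at 4.5DDC, 6.29, 8.78 and 8.52 at 5.5DDC and 10.7, 7.89 and 7.93 at 6.5DDC. By mean FPKM, it was led by Cd68 at 4.5DDC and 5.5DDC and by Cdh5 at 6.5DDC. What these cells contributed to the receptor RNA was not tested.

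Several receptor genes lie side by side in the genome, and differences between neighbours were not tested. On chromosome 9, Chrna5 (chr9:54980880-55007779, plus strand), Chrna3 (chr9:55010111-55026562, minus strand) and Chrnb4 (chr9:55028154-55048779, minus strand, GENCODE M21 on GRCm38) form a cluster, and their log2 fold changes over the whole span were 0.02, −1.07 and −0.93, none of them called by edgeR over the 9 libraries without a block. The mean FPKM of Chrna3 was 2.09, 1.8 and 1.88 times that of Chrnb4 at the 3 time points. On chromosome 3, Gria2 (chr3:80681450-80802835, minus strand), called at 3.72, neighbours Glrb (chr3:80843599-80913660, minus strand), not called at 0.55. On chromosome 5, Gabra2 lies in a cluster with Gabrg1, Gabra4 and Gabrb1, of which Gabrg1 was tested and not called and Gabra4 and Gabrb1 were too low to test. On chromosome X, Gabrq, called at 3.02, neighbours Gabra3, not called at 1.94. Both were called higher with the replicate block. The remaining called genes were at chr9:4417896-4796234 (Gria4, minus strand), chr10:49094833-49788766 (Grik2, minus), chr16:9567898-9995560 (Grin2a, minus), chr14:34820108-35583379 (Grid1, plus), chr5:70957597-71095849 (Gabra2, minus), chrX:72825178-72842602 (Gabrq, plus), chr17:37045966-37075067 (Gabbr1, plus) and chr2:91927249-91928688 (Chrm4, plus), all protein-coding.

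For 0 of the 9 called genes did exons overlap an antisense gene in this annotation. Beside Chrnb2, overlaps were found for genes such as Grin1 (13.5% of exonic bases, with Grin1os), Grin2d (9.66%, Gm45441), Grm2 (9.6%, Gm28111) and Glra1 (5.84%, Gm12236) among the tested genes, and their reads cannot be told apart where strand was not used. FPKM and counts gave different pictures for genes such as Gabbr2, Gabrq, Gria1, Grin1 and Grm5, in which a library had more than 2 times the gene's median ratio of FPKM to CPM. For these the counts, on which the tests rest, are the firmer values.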

How the data were processed

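The authors mapped single-end reads to GRCm38 with TopHat2 2.0.4 (bcl2fastq 1.8.3 before it) and counted them per gene with HTSeq 0.6.1. The deposited values were not whole for 98 symbols, as in expected counts or estimated counts, so they were rounded to whole numbers. FPKM were computed by the authors with Cufflinks 2.1.1 and used as deposited for levels. The deposited log2 table (limma voom) was not used. Whether the counting used strand is not given in the sources used here. The members and the companion and marker lists were chosen with earlier results of these data known.

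Genes were filtered with filterByExpr (14742 kept), scaled by TMM (factors 0.951 to 1.04) and fitted with edgeR 4.0.16 (glmQLFit, glmQLFTest) in R 4.3.3, with the time point as factor, all 9 libraries, a common dispersion of 0.0733 and 6 degrees of freedom left. SE was the log2 fold change divided by the root of F. P-values were adjusted by Benjamini-Hochberg over all tested genes at a threshold of 0.05, and changes of CPM within replicates used a prior count of 2. Alternatives used DESeq2 1.42.0, limma 3.58.1 (voom on counts, or log2 FPKM with a pseudocount of 1 or 0.1), other scalings and filters, the 6 libraries compared, a replicate block and each library left out. Tables and plots used Python 3.11.15, pandas 2.3.3, numpy 2.4.6 and matplotlib 3.10.9. The procedure was tested on simulated data.

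Replicate numbers come from the sample labels. After the mean of each time point was taken off, log2 CPM of libraries with equal numbers correlated at 0.743, 0.386 and 0.452 between 4.5DDC and 5.5DDC and at 0.454, 0.367 and 0.197 between 5.5DDC and 6.5DDC, and adjacent time points were therefore treated as paired. Libraries with unequal numbers correlated at 0.291 and 0.39 in the first interval and 0.225 and 0.405 in the second where both were replicate 2 or 3, and between −0.653 and −0.393 and between −0.45 and −0.245 where 1 of them was replicate 1. The numbers thus set replicate 1 apart and do not separate replicate 2 from replicate 3, so the pairing within these is uncertain. Between 4.5DDC and 6.5DDC the values were 0.383, −0.0396 and −0.215, and those were not treated as paired. Unequal numbers over this span gave 0.46 and 0.487 where both were replicate 2 or 3 and between −0.371 and −0.123 with replicate 1.

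Genes named were every receptor gene called in a comparison, the 4 with the highest mean FPKM of each transmitter, the 2 uncalled ones with the largest change from 4.5DDC to 6.5DDC of each transmitter, Chrna7, and in each companion list the largest called rise and fall and the most abundant gene. Results for some of these genes are not reported here. Others were named after their values were seen.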

Additional observations from a re-analysis of the deposited data

How the results depend on the processing

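The number of receptor genes called higher from 4.5DDC to 6.5DDC (8) was 19 with the replicate block (13% of all tested genes), 5 with limma voom (8.64%) and between 2 and 17 with a library left out (3.36% to 10.7%). The number called lower (1) was 3 with the block (10.2%), 0 on log2 FPKM with a pseudocount of 1 (8.49%) and between 0 and 1 with a library left out (3.7% to 10.3%). From 4.5DDC to 6.5DDC the replicate number sets replicate 1 apart but does not pair replicates 2 and 3, so the block values of that span are descriptions. From 5.5DDC to 6.5DDC the number higher (0 by edgeR) was 5 with the block (0.787%), 1 with DESeq2 (1.86%) and between 0 and 1 with a library left out (0% to 0.436%). Further settings were chosen after seeing the data. A block of replicate 1 against replicates 2 and 3 gave 19 higher and 4 lower over the span (16% and 13.7% of all tested genes), 2 higher from 4.5DDC to 5.5DDC (2.52%) and 6 higher from 5.5DDC to 6.5DDC (2.42%). Replicates 2 and 3 only gave 22 and 2 (16.5% and 14.8%), then 3 higher (2.42%), then 8 higher and 1 lower (2.46% and 2.51%). For auxiliary and scaffold genes of glutamate receptors the number higher (5) was 9 with the replicate block, 10 with the block of replicate 1, 11 with replicates 2 and 3 only (the shares of all genes being those above), 8 with DESeq2 (where 13.1% of all tested genes were called higher) and between 2 and 8 with a library left out, and the number lower (3) was between 1 and 4, beside the shares given above for such fits. For chaperone and clustering genes of acetylcholine receptors the number higher (1) was 2, 5, 4 and 3 in the same settings, 2 without a filter (6.01% of all tested genes), 2 with the 6 libraries compared (7.28%) and between 1 and 2 with a library left out. With a library left out, companion genes of GABA and glycine receptors called higher (5) numbered between 3 and 7 (beside the 3.36% to 10.7% of all genes above), and synthesis and transport genes between 4 and 12 higher (10) and between 1 and 3 lower (2), beside 3.7% to 10.3%. The cause was not tested.

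The 9 libraries come from 1 cell line and 1 kind of sort, and the sample labels do not say whether they were separate cultures. Receptor RNA in bulk does not show which cells hold it, and protein and channel function were not measured. Most receptor genes were too low to test, so a lack of a call for them carries little weight. Replicate 1 was the lowest library for most of the 35 tested receptor genes, and the cause was not tested.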
